A study of Homo sapiens with 30 samples.

Results

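The genes described here were 9 markers of neuroendocrine differentiation and lineage plasticity, SYP, CHGA, CHGB, NCAM1, SOX2, INSM1, POU3F2, REST and SOX9, chosen by name from the 23710 gene symbols with read counts. The series holds 30 RNA-seq samples, with 3 replicates for each of 10 conditions. V16D is a castration-resistant cell line derived from LNCaP prostate cancer cells, and MR49F is an LNCaP-derived line that grew under enzalutamide in castrated mice, so each line stands for its own history of selection and not for resistant disease in general. In full serum, V16D and MR49F cells received DMSO vehicle or 10 µM enzalutamide, an antiandrogen drug, for 24 h. Charcoal-stripped serum, which is depleted of steroids, was given to MR49F cells alone, for 72 h before treatment. These cells received vehicle, 10 µM enzalutamide, 1 nM dihydrotestosterone (DHT, the most potent natural androgen) or 500 nM JQ-1 (an inhibitor of the BET bromodomain proteins). Others received enzalutamide plus JQ-1 or DHT plus JQ-1. All are recorded as treated for 24 h. The paper's legend for the RNA-seq with JQ-1 refers to a treatment of 3 days, so that time is uncertain. MR49F is maintained in enzalutamide, and per the growth notes all cells were kept without it for days before treatment. The replicates were plated in triplicate wells, and no source used here says whether they came from separate cultures, so p-values measure only the spread between these samples.

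Prostate adenocarcinoma cells are luminal and depend on androgens. Under antiandrogen treatment some tumours lose luminal identity and acquire neuroendocrine features, which is known as lineage plasticity. Neuroendocrine cells store peptides in dense-core granules with chromogranins (CHGA, CHGB), make small vesicles with synaptophysin (SYP) and carry the adhesion molecule NCAM1 (CD56) at the surface. INSM1, POU3F2 (BRN2) and SOX2 are transcription factors that promote neuroendocrine or stem-like states, SOX9 is a factor of basal and progenitor epithelium, and REST represses neuronal genes in non-neuronal cells through corepressors such as RCOR1.

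The annotation of GRCh37, the build of the files, places SYP on the minus strand of chromosome X at 49044268 to 49056677 and CHGA on the plus strand of chromosome 14 at 93389495 to 93401630. The RefSeq promoter set (GRCh38.p14, 250 bases before to 50 after the start) held entries for SYP, CHGA, SOX2, POU3F2 and REST. The promoters of SYP and CHGA are shown because SYP had the largest increase of the 9 genes with JQ-1 alone, while CHGA, another classical neuroendocrine marker, stayed near 0 in all samples. SYP lies at chrX:49200144-49200443 on the minus strand and CHGA at chr14:92922900-92923199 on the plus strand, both written 5′ to 3′ along the gene, with a cyclic AMP response element (TGACGTCA, both strands searched) in capitals.
SYP promoter: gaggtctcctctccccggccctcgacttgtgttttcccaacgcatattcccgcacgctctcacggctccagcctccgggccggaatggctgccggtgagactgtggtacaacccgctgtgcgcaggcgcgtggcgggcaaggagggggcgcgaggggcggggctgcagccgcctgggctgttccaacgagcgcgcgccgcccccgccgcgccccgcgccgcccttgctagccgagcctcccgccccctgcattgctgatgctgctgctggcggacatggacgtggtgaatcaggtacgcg
CHGA promoter: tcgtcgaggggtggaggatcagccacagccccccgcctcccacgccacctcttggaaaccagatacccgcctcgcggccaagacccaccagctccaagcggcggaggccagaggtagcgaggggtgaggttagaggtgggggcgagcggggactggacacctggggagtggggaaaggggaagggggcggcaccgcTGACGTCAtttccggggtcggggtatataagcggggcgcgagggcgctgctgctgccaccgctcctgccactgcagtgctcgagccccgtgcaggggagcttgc
The element stood 54 bases before the CHGA start, in a window with 69.3% G and C, and 1.85% of the 35116 promoters of the same length held it. The SYP window had 71.3% G and C against a median of 58.7% over all promoters. The left part of the REST element (TTCAGCACC), present in 0.376% of promoters, was not found in these windows or in those of SOX2, POU3F2 and REST, which says only that these letters were absent there.

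Levels are given as FPKM (a read level corrected for transcript length and library size), which the authors computed with Cufflinks, summed over the transcripts of a gene and comparable between genes per length. Read counts per gene came from HTSeq. The depth of those counts differed between the experiments. Reads counted on genes numbered 13170504 to 21154962 per sample in full serum, 73.0% to 77.8% of the reads assigned, but only 982130 to 1813262 in stripped serum, 5.13% to 7.66%. Among 52 genes under 0.5 FPKM that lie opposite a gene of at least 20 FPKM on the other strand, none reached a mean of 10 CPM (reads scaled to the library total) in full serum and 21.2% did in stripped serum. For genes with no exon on the opposite strand the stripped-serum share was 0.777%. Per FPKM, REST received 6.89% as many counted reads in stripped as in full serum and SYP 7.30%. NCAM1, which has 1002 exonic bases facing antisense genes, received 15.2%. POU3F2, SOX9, CHGB, SOX2 and CHGA, with no exonic bases facing another gene and few reads, received 10.8%, 11.4%, 17.8%, 29.6% and 36.2%. The cause was not tested. Stripped-serum comparisons are therefore led by FPKM with the counts beside them, and full-serum comparisons by counts.

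Of the 9 genes, 4 reached 1 FPKM in a sample (SYP, NCAM1, REST and SOX9) and 5 stayed under 1 FPKM in all 30 samples (CHGA, CHGB, INSM1, SOX2 and POU3F2), and these 5 are called not expressed here. In bulk RNA a low level in all cells and a high level in a few cells cannot be told apart. REST was at or above 1 FPKM in 30 samples, SYP in 22, NCAM1 in 12 and SOX9 in 6. The luminal markers KLK3, HOXB13, FOXA1, TMPRSS2, KRT8 and KRT18 were at or above 1 FPKM in every sample, with a summed condition mean of 584 to 2623 FPKM. The basal markers KRT5, KRT14 and TP63 were under 1 FPKM in every sample, and their summed condition mean was at most 0.251 FPKM. Of 3 markers of other cells, PTPRC (leukocytes) and PECAM1 (endothelium) were under 1 FPKM throughout and COL1A1 (fibroblasts) ranged from 0.616 to 1.77 FPKM.

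**Figure D1:**
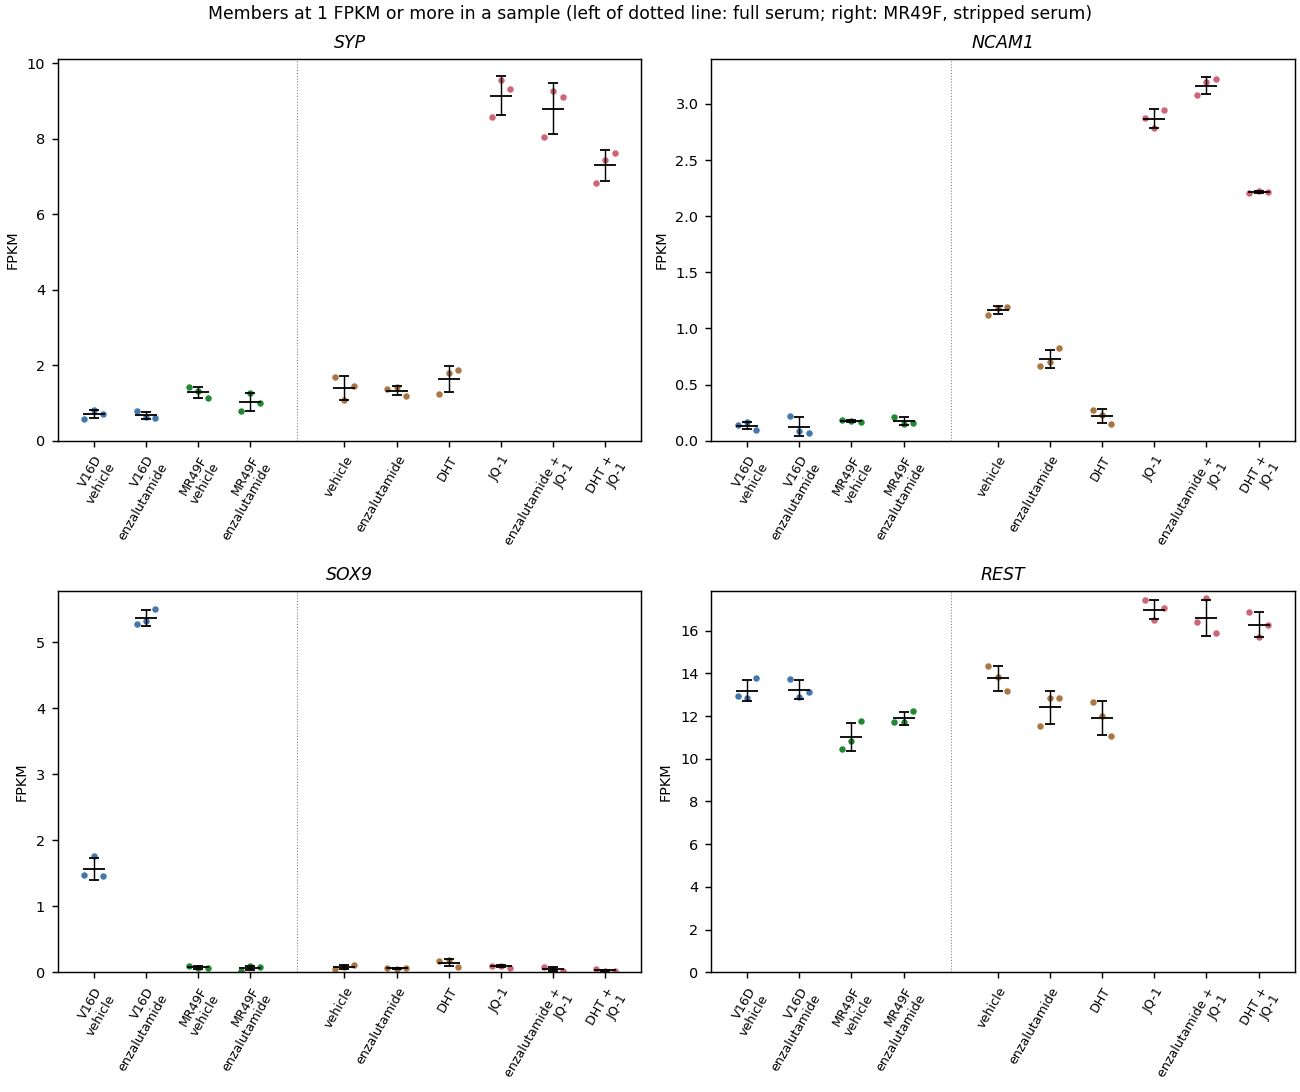
FPKM of SYP, NCAM1, SOX9 and REST on linear axes from 0, with a point for each of 3 replicates and a black bar for the mean ± 1 SD of each of 10 conditions. SYP and NCAM1 are highest in the 9 samples with JQ-1, SOX9 exceeds 1 FPKM in V16D alone, and REST lies between 10.5 and 17.5 FPKM in all 30 samples.

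Among the granule and vesicle genes, SYP was low without JQ-1. In full serum its replicates read 0.585, 0.801 and 0.718 FPKM in V16D vehicle and 0.780, 0.634 and 0.597 with enzalutamide. MR49F read 1.42, 1.30 and 1.12 in vehicle and 0.792, 1.26 and 0.987 with enzalutamide. The vehicle samples of the 2 lines did not overlap, while vehicle and enzalutamide samples overlapped within each line. In stripped serum SYP stood at 1.69, 1.07 and 1.45 FPKM in vehicle, 1.36, 1.42 and 1.20 with enzalutamide and 1.25, 1.79 and 1.87 with DHT. With JQ-1 it stood at 8.56, 9.55 and 9.30, with enzalutamide plus JQ-1 at 8.03, 9.25 and 9.11 and with DHT plus JQ-1 at 6.83, 7.43 and 7.61. Each of the 9 samples with JQ-1 was above each of the 21 without it.

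The chromogranins, the defining proteins of dense-core granules, were not expressed by the rule of 1 FPKM. CHGA never exceeded 0.170 FPKM and had a median of 0.0439, with 46 counted reads over all 30 samples. CHGB differed from it. In full serum CHGB did not exceed 0.0625 FPKM in any of 12 samples, but in stripped serum it read 0.361, 0.404 and 0.531 in vehicle and 0.0711, 0.0166 and 0.0400 with DHT. Enzalutamide gave 0.206, 0.229 and 0.153 and JQ-1 gave 0.636, 0.746 and 0.728, the highest of the series. Vehicle, enzalutamide, DHT and JQ-1 samples of CHGB did not overlap with one another. With enzalutamide plus JQ-1 CHGB read 0.324, 0.273 and 0.190 and with DHT plus JQ-1 0.176, 0.139 and 0.165. HTSeq counted 57 CHGB reads over these 18 samples, and the depth behind the FPKM is unknown.

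The adhesion molecule NCAM1 was near 0 in full serum, with 0.0671 to 0.218 FPKM over 12 samples of both lines. In stripped serum it read 1.12, 1.18 and 1.19 FPKM in vehicle, 0.664, 0.697 and 0.821 with enzalutamide and 0.275, 0.232 and 0.147 with DHT. JQ-1 gave 2.88, 2.78 and 2.95, enzalutamide plus JQ-1 gave 3.08, 3.20 and 3.22 and DHT plus JQ-1 gave 2.20, 2.22 and 2.22. The 6 conditions of NCAM1 in stripped serum formed an order without overlap, with DHT lowest and enzalutamide plus JQ-1 highest. Of the gene's 5 transcripts, NM_000615 carried 64.2% or more of its FPKM. MR49F vehicle samples averaged 0.174 ± 0.0112 FPKM (SD, n = 3) in full serum and 1.16 ± 0.0357 in stripped serum, but serum, plating and the depth of counts changed together between these experiments and cannot be told apart.

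Of the transcription factors, INSM1 was listed at 0 FPKM in 27 of 30 samples and never exceeded 0.0187. One read was counted on INSM1 in the whole series. A count of 0 allows up to 3 reads per library, or 0.142 to 0.228 CPM in full serum and 1.65 to 3.05 CPM in stripped serum, where its absence is thus less firmly established; these limits cover counting error only. SOX2 had 27 counted reads in all and at most 0.0931 FPKM, the highest value being a V16D sample with enzalutamide. The 3 V16D samples with enzalutamide held 10 SOX2 reads and the 3 with vehicle held 1, too few to pass the filter. POU3F2 was low but measured in every sample, from 0.0418 to 0.571 FPKM. In stripped serum POU3F2 read 0.345, 0.369 and 0.571 in vehicle, 0.206, 0.340 and 0.240 with enzalutamide and 0.101, 0.0418 and 0.0755 with DHT. The DHT samples lay below all other samples of POU3F2.

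**Figure D2:**
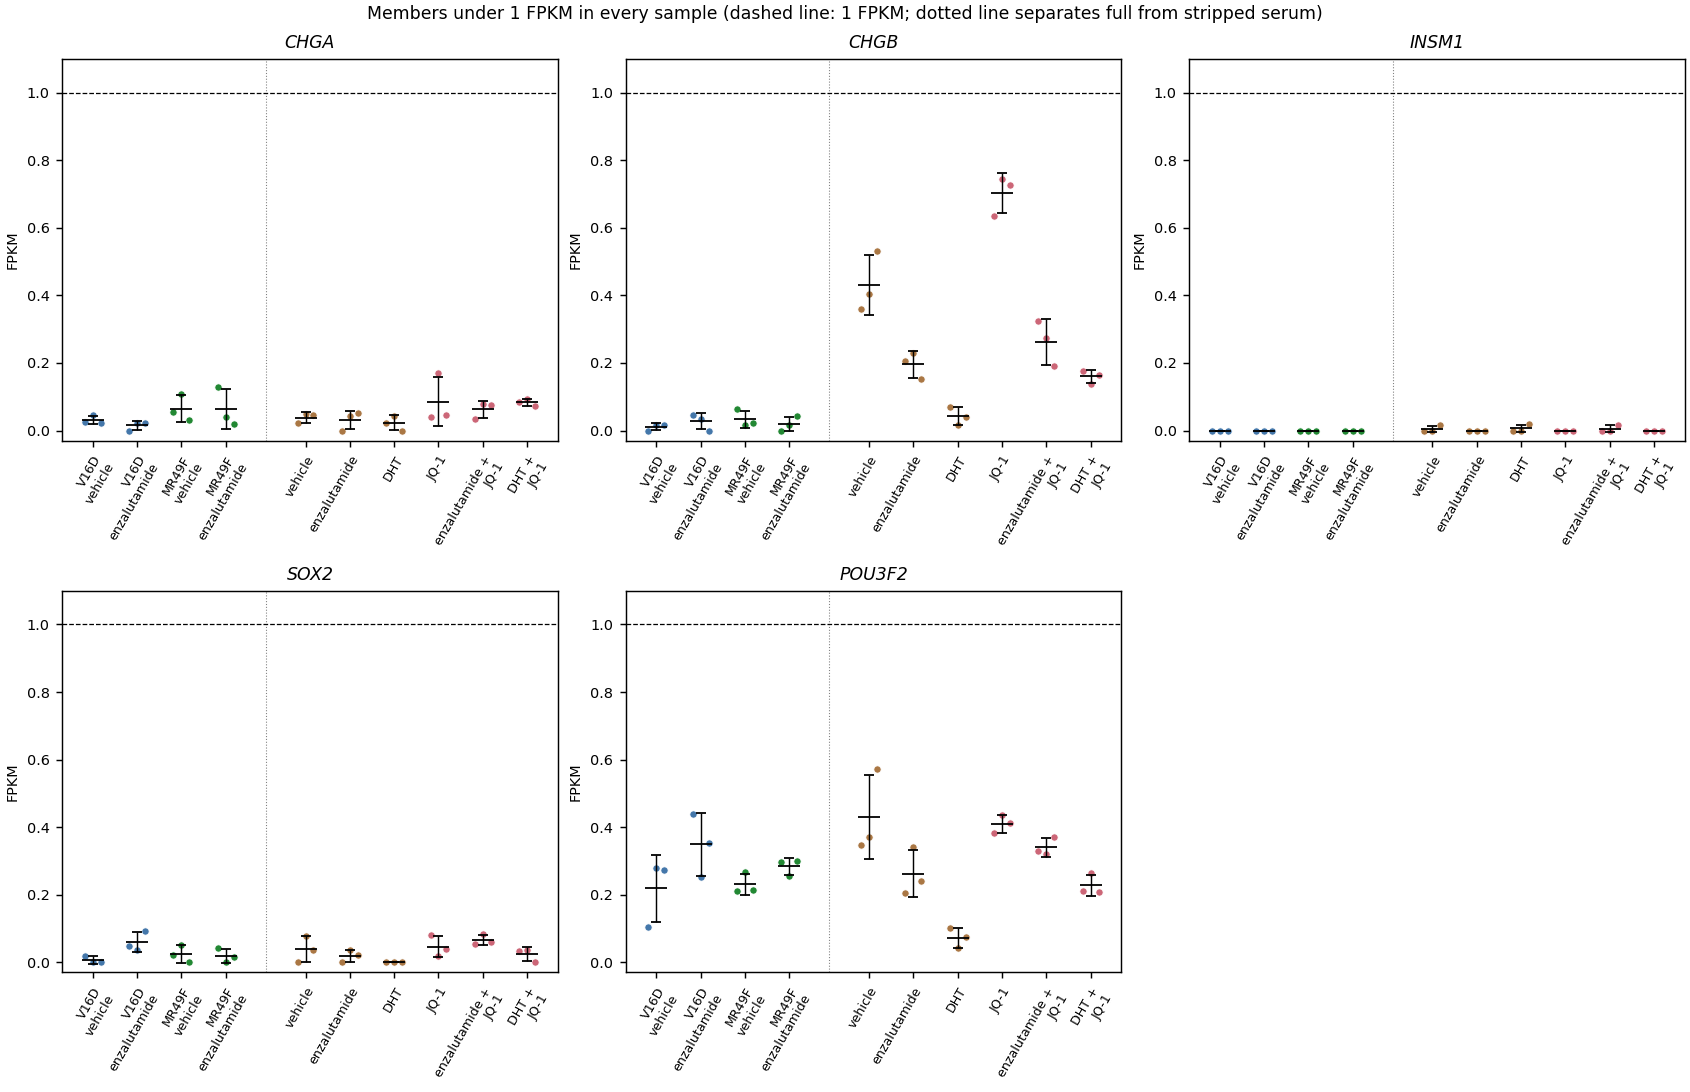
FPKM of the 5 genes under 1 FPKM in every sample, on a common linear axis, with points for 3 replicates, bars for the mean ± 1 SD and a dashed line at 1 FPKM. CHGA, INSM1 and SOX2 lie near 0 throughout, and among the stripped-serum conditions CHGB and POU3F2 are lowest with DHT.

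SOX9 separated the lines. V16D read 1.47, 1.76 and 1.46 FPKM in vehicle and 5.28, 5.32 and 5.51 with enzalutamide, and the groups did not overlap. In MR49F the 24 samples of both sera ranged from 0.0228 to 0.185 FPKM. In full serum MR49F had 17 counted SOX9 reads over the 3 vehicle samples and 19 over the 3 enzalutamide samples, against 406 and 1474 in V16D.

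REST, the repressor of neuronal genes, was present in every sample. V16D read 12.9, 12.9 and 13.8 FPKM in vehicle and 13.7, 12.9 and 13.1 with enzalutamide, and MR49F in full serum read 10.5, 10.8 and 11.7 in vehicle and 11.7, 11.7 and 12.3 with enzalutamide. In stripped serum REST read 14.3, 13.8 and 13.2 in vehicle, 11.5, 12.8 and 12.8 with enzalutamide and 12.7, 11.98 and 11.1 with DHT. The samples with JQ-1 read 17.4, 16.5 and 17.0, those with enzalutamide plus JQ-1 16.4, 17.5 and 15.9 and those with DHT plus JQ-1 16.9, 15.7 and 16.2. The 9 samples with JQ-1 were above the other 21. Transcript NM_001193508 held 52.1% to 92.2% of the REST FPKM and NM_005612 the rest, and reads of 50 bases limit how well such transcripts are told apart.

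In full serum the study asked how each line responds to enzalutamide. In V16D, SOX9 rose 3.43-fold by mean FPKM, from 1.56 ± 0.169 to 5.37 ± 0.120 (SD, n = 3). On the counts its log2 fold change was 1.74 (SE 0.0791, edgeR's quasi-likelihood test, Benjamini-Hochberg adjusted p = 7.84e-83). POU3F2 was also called, with a log2 fold change of 0.65 (SE 0.245, adjusted p = 0.0236 by edgeR) from 59 to 101 summed reads, but its FPKM overlapped between the groups and without V16D vehicle replicate 1 the value was 0.34 (adjusted p = 0.344). Without enzalutamide replicate 1 it was 0.44 (adjusted p = 0.240 by edgeR), and DESeq2 gave an adjusted p of 0.186. All 3 enzalutamide samples but only 2 of 3 vehicle samples reached the count minimum for POU3F2, so it was tested through the group where it was higher. SYP, NCAM1 and REST did not pass the test, with log2 fold changes of -0.09 (SE 0.203), -0.12 (SE 0.289) and -0.03 (SE 0.0320). Thus 2 of the 5 genes tested were called, against 37.5% of all 14079 genes tested.

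In MR49F none of the 4 genes tested was called for enzalutamide in full serum by edgeR, against 8.48% of 13927 genes. None had an unadjusted p under 0.05, and DESeq2 and limma called none of those they tested. The log2 fold change of SYP was -0.37 (SE 0.186, adjusted p = 0.243 by edgeR) and that of REST 0.07 (SE 0.0478). The response of SOX9 differed between the lines by -1.91 on the log2 scale (SE 0.495, adjusted p = 0.0209, edgeR interaction). It rests on few MR49F reads, since SOX9 passed the filter on counts only through V16D (with no filter, edgeR adjusted p = 0.00791), and without MR49F vehicle replicate 1 it was -1.66 (adjusted p = 0.0672). SOX9 was the 1 call among 5 genes tested for the interaction, against 6.95% of all genes.

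Between the vehicle samples, MR49F had 21.4-fold less SOX9 than V16D by mean FPKM (log2 fold change -4.40 on counts, SE 0.221, adjusted p = 1.46e-08 by edgeR). SOX9 entered this fit only through V16D, where it is high, which favours a difference, and with no filter the log2 fold change was -4.39 (edgeR adjusted p = 3.18e-13). SYP was 1.83-fold higher in MR49F (log2 fold change 0.89, SE 0.177, adjusted p = 8.40e-04). REST was slightly lower, at 11.0 ± 0.665 against 13.2 ± 0.495 FPKM (log2 fold change -0.27, SE 0.0509, adjusted p = 6.51e-04). NCAM1 and POU3F2 had log2 fold changes of 0.32 (SE 0.259) and 0.10 (SE 0.322) and were not called. These 3 calls among 5 genes tested, SOX9 among them, stand beside 63.7% of all genes called between the lines.

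In stripped serum the question was how MR49F responds to an androgen and to enzalutamide when androgens are scarce. DHT lowered NCAM1 5.33-fold by mean FPKM, and enzalutamide lowered it 1.60-fold. On the log2(FPKM + 1) scale, which understates changes of low genes, NCAM1 fell by 0.83 with DHT (SE 0.0656, limma adjusted p = 6.45e-06) and by 0.33 with enzalutamide (SE 0.0712, limma adjusted p = 0.00658). NCAM1 passed the filter of 1 FPKM in at least 3 samples only through the vehicle group in both fits, which favours a difference. With no filter the same changes had limma adjusted p = 2.78e-05 and 0.00538. On counts NCAM1 fell by 2.01 with DHT (log2, SE 0.412, edgeR adjusted p = 3.96e-04), from 67 to 15 summed reads, again tested only through the vehicle samples (with no filter, edgeR adjusted p = 2.04e-06), and was -0.10 (SE 0.264) with enzalutamide, from 67 to 62 reads. REST fell by 0.20 with DHT (SE 0.0557, limma adjusted p = 0.0119), where the median over all genes was -0.083 on the same scale. Its count-based value was 0.06 (SE 0.128), so the fall was seen on FPKM alone. SYP had log2(FPKM + 1) differences of 0.13 (SE 0.120) with DHT and -0.04 (SE 0.0997) with enzalutamide, neither past the threshold.

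For DHT, 2 of 3 genes tested on FPKM were called against 72.1% of all genes, and 1 of 2 on counts against 37.5%. For enzalutamide, 1 of 3 was called on FPKM against 38.7%, and 0 of 2 by edgeR on counts against 7.26%, with none at an unadjusted p under 0.05 and none by DESeq2. The comparisons share their vehicle samples. CHGB and POU3F2 did not pass the filters. In the fit with no filter on low values, CHGB was 10.1-fold lower with DHT by mean FPKM (limma adjusted p = 3.63e-04) and 2.20-fold lower with enzalutamide (adjusted p = 0.0145), and POU3F2 was 5.90-fold lower with DHT (adjusted p = 0.00190). In that fit the enzalutamide value of POU3F2 was -0.18 (SE 0.0705, adjusted p = 0.129). On counts with no filter, edgeR also called the falls with DHT. CHGB went from 16 to 1 summed reads (edgeR adjusted p = 0.00497) and POU3F2 from 12 to 1 (edgeR adjusted p = 0.0303). The fall of CHGB with enzalutamide was not called on counts, from 16 to 9 reads (edgeR adjusted p = 0.609).

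Set against each other as ligands, DHT and enzalutamide left no gene called on FPKM among SYP and REST, the 2 tested, by limma, against 57.4% of all genes, with none at an unadjusted p under 0.05. NCAM1 was under 1 FPKM in both groups and so was not tested there. On counts NCAM1 was lower with DHT (log2 fold change -1.92, SE 0.436, edgeR adjusted p = 0.00332), the 1 call of 2 genes tested, against 19.4% of all genes. It passed that filter only through the enzalutamide samples (with no filter, edgeR adjusted p = 2.15e-05). With no filter, limma called NCAM1 (-0.50, SE 0.0535), POU3F2 (-0.23, SE 0.0439) and CHGB (-0.20, SE 0.0316) lower with DHT. On counts with no filter, edgeR did not call POU3F2 (adjusted p = 0.474, 5 summed reads with enzalutamide against 1 with DHT). Nor did it call CHGB (edgeR adjusted p = 0.149, 9 reads against 1).

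JQ-1 raised SYP, NCAM1 and REST in each of 3 settings, alone, with enzalutamide and with DHT. SYP rose 6.52-fold by mean FPKM over vehicle, 6.64-fold over enzalutamide and 4.46-fold over DHT. NCAM1 rose 2.46-fold, 4.35-fold and 10.1-fold in the same order. REST rose 1.23-fold, 1.34-fold and 1.37-fold. For all of these the groups did not overlap. The share of all genes that separate in this way was not counted, here or where groups are said above not to overlap. On FPKM, 75.1% to 78.8% of all genes tested were called in these comparisons with JQ-1.

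The tests on log2(FPKM + 1) gave, for JQ-1 against vehicle, 2.09 for SYP (SE 0.0931, limma adjusted p = 2.85e-07), 0.84 for NCAM1 (SE 0.0507, adjusted p = 1.44e-06) and 0.29 for REST (SE 0.0420, adjusted p = 3.03e-04). With enzalutamide present they gave 2.07, 1.27 and 0.39, with SE of 0.0685, 0.0621 and 0.0565. With DHT present they gave 1.66, 1.40 and 0.42, with SE of 0.0941, 0.0593 and 0.0540. SYP and REST, which passed the filter in both groups of each setting, were called in all 3. NCAM1 passed the filter in both groups for JQ-1 against vehicle, but only through the JQ-1 samples in the settings with enzalutamide and with DHT, where it had to differ. With no filter NCAM1 had limma adjusted p = 9.77e-06 with enzalutamide and 3.66e-06 with DHT.

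Counts gave the same directions, with log2 fold changes of 2.34, 2.08 and 2.09 for SYP, 1.23, 1.71 and 2.98 for NCAM1 and 0.45, 0.63 and 0.44 for REST, all called by edgeR. On counts SYP passed the filter only through the JQ-1 samples in every setting, and so did NCAM1 in the setting with DHT, so these calls are not independent of the filter. With no filter edgeR gave SYP an adjusted p of 1.51e-11, 6.12e-10 and 3.84e-10 and NCAM1 with DHT an adjusted p of 4.52e-20. SYP rested on 17, 24 and 20 summed reads without JQ-1 against 101, 85 and 99 with it, and DESeq2 gave it an adjusted p of 0.0859 for JQ-1 against vehicle. The share of all genes called was 75.1% on FPKM and 46.6% on counts for JQ-1 alone, 75.7% and 45.1% with enzalutamide, and 78.8% and 54.7% with DHT. On FPKM, then, most genes tested were called in these comparisons.

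**Figure D3:**
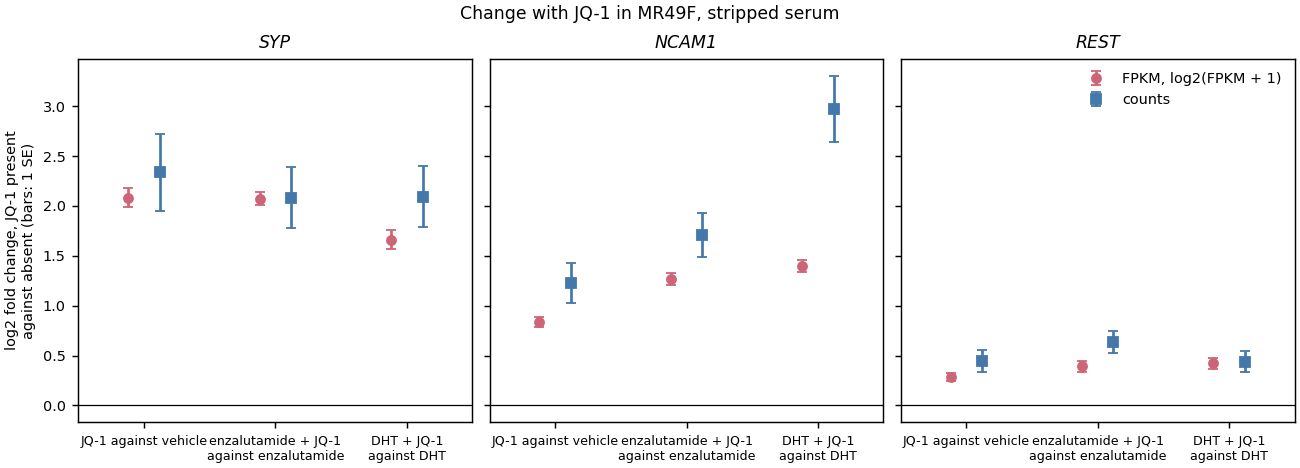
Log2 fold change with JQ-1 (bars, 1 SE) for SYP, NCAM1 and REST in MR49F in stripped serum, alone and in the presence of enzalutamide or DHT, from FPKM (circles) and counts (squares). All 18 values lie above 0, and those of NCAM1 rise from JQ-1 alone to the setting with DHT in both measures.

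Of the genes that did not pass the filters, CHGB with JQ-1 was 1.63-fold higher than vehicle by mean FPKM (limma with no filter, adjusted p = 0.00753) and 3.76-fold higher in the setting with DHT (adjusted p = 0.00195), while its groups overlapped in the setting with enzalutamide. POU3F2 overlapped between JQ-1 and vehicle (-0.02 on log2(FPKM + 1), SE 0.0625) and was 3.13-fold higher with DHT plus JQ-1 than with DHT (adjusted p = 0.00139). SOX9 was 4.93-fold lower with DHT plus JQ-1 than with DHT (adjusted p = 0.0135), at levels of at most 0.185 FPKM and with 4 against 2 summed reads. CHGA reached 0.0732 to 0.0926 FPKM with DHT plus JQ-1 against at most 0.0442 with DHT (adjusted p = 0.0110), with 3 against 2 summed reads. SOX2 read 0.0528 to 0.0827 FPKM with enzalutamide plus JQ-1 against at most 0.0347 with enzalutamide (adjusted p = 0.0302). On counts with no filter, edgeR called none of these changes. Its adjusted p for CHGB was 0.957 with JQ-1 alone (16 to 19 summed reads) and 0.255 in the setting with DHT (1 to 6 reads). For POU3F2 in the setting with DHT it was 0.0846 (1 to 9 reads), and for SOX2 0.0726 (0 to 5 reads).

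On the log2 scale, the effect of JQ-1 on NCAM1 differed between DHT and vehicle in both measures, and between enzalutamide and vehicle on FPKM alone. The DHT by JQ-1 interaction of NCAM1 was 0.56 on log2(FPKM + 1) (SE 0.0689, limma adjusted p = 4.14e-05) and 1.75 on counts (SE 0.424, edgeR adjusted p = 0.00333). With enzalutamide it was 0.43 (SE 0.0710, limma adjusted p = 0.00146) and 0.48 on counts (SE 0.304, edgeR adjusted p = 0.547). No DHT sample reached the filter's minimum for NCAM1 in the DHT fits, and no enzalutamide sample did in the FPKM fit with enzalutamide. NCAM1 was thus tested there through its other groups, where it is higher. With no filter the DHT interaction had limma adjusted p = 6.55e-05 and edgeR adjusted p = 0.00111. The enzalutamide interaction then had limma adjusted p = 0.00204. SYP moved the other way with DHT, at -0.42 (SE 0.147, limma adjusted p = 0.0322), and was -0.24 on counts (SE 0.597). That call was lost without DHT plus JQ-1 replicate 1, vehicle replicate 2, or replicate 2 or 3 of DHT or JQ-1 (values -0.32 to -0.41, adjusted p = 0.0611 to 0.0759 by limma). The interactions of REST were 0.14 (SE 0.0691) with DHT and 0.11 (SE 0.0712) with enzalutamide, neither called. On FPKM 2 of 3 genes were called for DHT by JQ-1 against 48.0% of all genes and 1 of 3 for enzalutamide by JQ-1 against 19.2%. On counts 1 of 3 was called for DHT by JQ-1 against 12.3%, and 0 of 3 by edgeR for enzalutamide by JQ-1 against 0.895%, with none at an unadjusted p under 0.05 and none by DESeq2.

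Other neuroendocrine genes were read from a list of 21. Of these, 15 were under 1 FPKM in every sample, among them the transcription factor NEUROD1 and the splicing factor SRRM4, and 5 were at or above 1 FPKM in every sample: SYT4, DDC, CPE, ENO2 and DLL3. SYT4, a synaptotagmin of secretory vesicles, ranged from 16.9 to 691 FPKM and was above SYP in every sample. DDC, the decarboxylase that makes amine transmitters, ranged from 2.76 to 162 FPKM. Both were highest in stripped-serum vehicle, at 679 ± 12.1 and 155 ± 7.77 FPKM (SD, n = 3), and both fell with JQ-1, to 17.7 ± 1.05 and 7.24 ± 0.693 FPKM. SYT4 and DDC thus changed opposite to SYP and NCAM1 in the same 6 samples, by -5.18 (SE 0.0441, limma adjusted p = 7.96e-11) and -4.24 (SE 0.0649, limma adjusted p = 1.83e-09) on log2(FPKM + 1).

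Of the 5 list genes tested for JQ-1 against vehicle, 1 rose (CPE, the carboxypeptidase that processes prohormones, 0.47) and 4 fell (median -0.44 on log2(FPKM + 1), over all genes -0.06), where 75.1% of all genes were called. With DHT, where 72.1% of all genes were called, 4 of 5 fell and none rose (median -0.71, all genes -0.08), with DDC at -2.56, ENO2 (neuron-specific enolase) at -1.57 and SYT4 at -0.71. With enzalutamide in stripped serum 3 of 5 fell, against 38.7% of all genes called, DDC by 0.55, SYT4 by 0.35 and ENO2 by 0.26. In V16D in full serum 4 of 6 rose with enzalutamide on counts and none fell (median 0.26, over all genes 0.0038), against 37.5% of all genes called, with DDC at 1.23, ENO2 at 0.60, SYT4 at 0.36 and CPE at 0.12. In MR49F in full serum DDC (0.27) and ENO2 (0.36) rose, 2 of 7 tested against 8.48% of all genes called. The enzalutamide response of DDC and SYT4 was smaller in MR49F than in V16D, with interactions of -0.98 and -0.29 on the log2 scale (edgeR interaction, adjusted p = 4.38e-07 and 4.85e-04). Between the lines, where 63.7% of all genes were called, 4 of 6 were higher in MR49F, DDC by 2.73, VGF by 2.0 and SYT4 by 1.36 among them, and CPE was lower (-0.36).

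**Figure D4:**
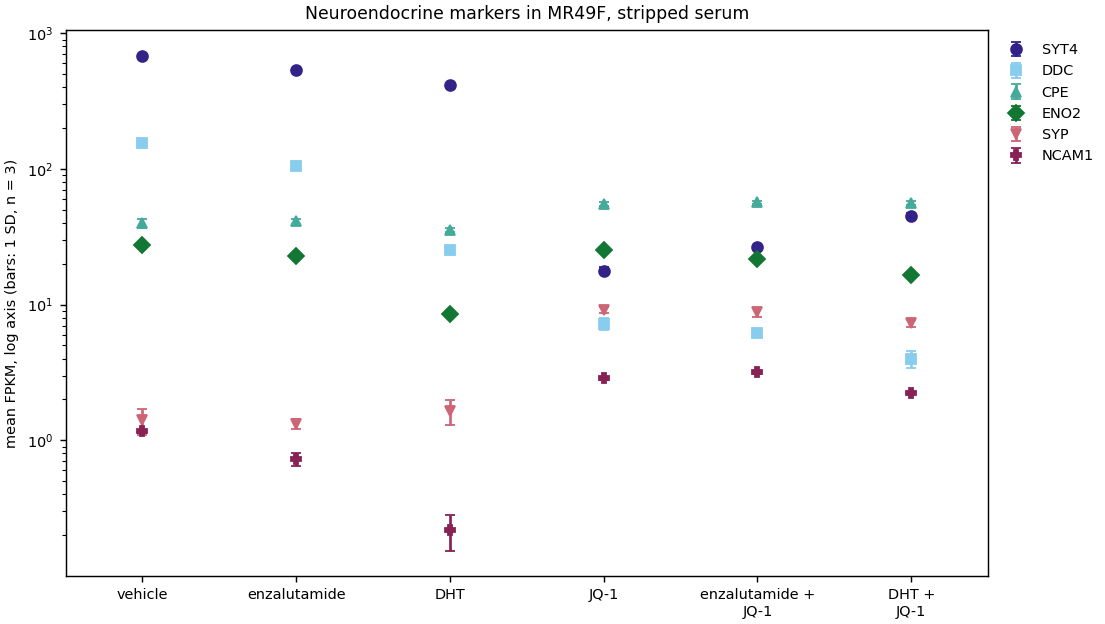
Mean FPKM (log axis, bars 1 SD, n = 3) of SYP, NCAM1, SYT4, DDC, CPE and ENO2 in the 6 stripped-serum conditions of MR49F. SYT4 and DDC drop in the 3 conditions with JQ-1 while SYP and NCAM1 rise.

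The partners and targets of REST were read from 2 further lists. Of 12 corepressor genes, 11 were at or above 1 FPKM in every sample, and their summed condition mean moved only between 253 and 288 FPKM. With JQ-1 alone 6 of 12 rose and 3 fell on FPKM (median 0.06), RCOR1 by 0.50 and RCOR2, another CoREST subunit, by -0.88, and CTDSP1, a phosphatase that acts with REST, by -0.73. With DHT 4 rose and 7 fell (median -0.21). Over all genes 75.1% were called with JQ-1 and 72.1% with DHT, so the share of corepressors called with JQ-1 was near that of all genes. Of 10 known REST targets, 6 were under 1 FPKM in every sample, the synapsin SYN1 and the growth cone gene STMN2 among them. Of the 3 tested for JQ-1 against vehicle on FPKM, where 75.1% of all genes were called, 2 rose, the adhesion molecule L1CAM (1.12, from 1.20 ± 0.0731 to 3.79 ± 0.342 FPKM) and the neuronal tubulin TUBB3 (1.08, from 9.16 ± 0.755 to 20.4 ± 0.736 FPKM). These 2 rose in samples where REST itself was also higher, but targets moved both ways in the other fits. On FPKM 2 of 4 rose and 2 fell with enzalutamide plus JQ-1 against enzalutamide (75.7% of all genes called). With DHT plus JQ-1 against DHT 2 of 4 rose and 1 fell (78.8%). On counts 3 of 6 rose and 1 fell with JQ-1 alone (46.6%), 3 rose and 1 fell with enzalutamide present (45.1%), and 3 rose and 2 fell with DHT present (54.7%). With DHT 2 of the 4 tested on FPKM fell and none rose, L1CAM by 0.82 and CELSR3 by 0.19, against 72.1% of all genes called. From 1.20 FPKM in vehicle, that fall took L1CAM under the filter's minimum of 1 FPKM with DHT. L1CAM was thus tested only through the vehicle samples, which favours a fall. In V16D with enzalutamide L1CAM was the 1 target of 6 called on counts, against 37.5% of all genes (1.52, SE 0.364, edgeR adjusted p = 1.71e-04).

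Of 12 plasticity drivers, 4 were under 1 FPKM in every sample, MYCN, LIN28B, NES and PROM1, and MYCN was listed at 0 throughout. PEG10, a retrotransposon-derived gene of neuroendocrine prostate cancer, rose in every stripped-serum comparison with JQ-1, from 7.47 ± 0.347 FPKM in vehicle to 53.2 ± 1.72 with JQ-1 and 140 ± 1.20 with DHT plus JQ-1. It also rose with DHT (1.80 on log2(FPKM + 1)) and was higher in MR49F than in V16D (3.72 on counts), but fell with enzalutamide in both lines in full serum (-0.43 in V16D and -0.34 in MR49F). ONECUT2, a driver of the neuroendocrine state, fell with DHT (-0.62) and with JQ-1 (-0.50). With JQ-1 1 of 4 drivers tested rose and 2 fell on FPKM, against 75.1% of all genes called, and with DHT 3 of 5 rose and 1 fell, against 72.1%. These shares are near the background. In V16D with enzalutamide 4 of 7 fell on counts, against 37.5% of all genes called, HES1, KLF4, PEG10 and EZH2, by -0.81, -0.50, -0.43 and -0.24.

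The genes whose condition means were most alike to each expressed gene were found by Pearson's r of log2(FPKM + 1), centred within the full-serum and stripped-serum experiments, over 10 conditions. For SYP they included LOC100507412 (r = 0.995) and HEXIM1 (r = 0.994), and for NCAM1 they were LRRC28 (r = 0.995), EFR3B (r = 0.991) and SEC14L1 (r = 0.991). REST was most like PPP1R21 (r = 0.995), HGSNAT (r = 0.993) and H3F3AP4 (r = 0.991). For SOX9 the 3 were short RNA genes, MIR5004, SNORD116-8 and MIR29C, each listed at 0 FPKM in at least 1 condition. The points share libraries, and r was taken as the highest over 10344 or 10345 genes, so these values are descriptions.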

How the data were processed

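RNA was measured by strand-specific poly(A) sequencing (Agilent SureSelect, 50-base reads from 1 end). The authors mapped to hg19 with TopHat2 2.0.9, deposited FPKM per transcript from Cufflinks 2.1.1 and deposited raw read counts per gene from HTSeq, whose strand setting is not given in the sources used here. Here FPKM were summed by gene symbol and levels given as mean ± SD of 3 replicates. Counts were tested with edgeR 4.0.16 (quasi-likelihood, TMM, filterByExpr) and log2(FPKM + 1) with limma 3.58.1 (trend, requiring 1 FPKM or more in 3 or more samples), fitted over all genes with Benjamini-Hochberg adjustment and called at 0.05. The SE on counts is the log2 fold change over the square root of the F statistic. DESeq2 1.42.0 and other settings were alternatives. The functions were tested on simulated data. Genes named were the 9 members, and from each list the genes past the threshold, up to 4 with the largest changes. Counts have a depth of 982130 to 21154962 reads on genes per sample, and the depth behind FPKM is unknown. Positions came from GENCODE 44 lifted to GRCh37, promoters from RefSeq (GRCh38.p14). Members and lists were chosen with earlier results of these data known. Some genes of these lists are not reported here.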

Additional observations from a re-analysis of the deposited data

Results flagged for a closer look

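Several responses differed between settings by a test of the difference itself. The enzalutamide response of SOX9 was lower in MR49F than in V16D by -1.91 on the log2 scale (edgeR interaction, adjusted p = 0.0209), with SOX9 higher in 3 of 3 treated V16D samples than in any V16D vehicle sample and 17 and 19 summed reads in MR49F. That call was lost without MR49F vehicle replicate 1 (-1.66, edgeR adjusted p = 0.0672). The JQ-1 response of NCAM1 was larger with DHT than with vehicle by 1.75 on counts (edgeR adjusted p = 0.00333) and by 0.56 on log2(FPKM + 1) (limma adjusted p = 4.14e-05). With enzalutamide it was larger than with vehicle by 0.43 on log2(FPKM + 1) (limma adjusted p = 0.00146), but the count value of 0.48 was not called (edgeR adjusted p = 0.547). In the called fits no sample with DHT alone or enzalutamide alone reached the filter's minimum for NCAM1. With no filter the DHT calls had limma adjusted p = 6.55e-05 and edgeR adjusted p = 0.00111, and the enzalutamide call had limma adjusted p = 0.00204. NCAM1 was higher in 3 of 3 samples with JQ-1 than in any sample of its comparison without it, which shows the response within a setting and not a difference between settings. The JQ-1 response of SYP differed in the opposite direction with DHT, by -0.42 on log2(FPKM + 1) (limma adjusted p = 0.0322), with SYP higher in 3 of 3 samples in both settings. That separation likewise shows no difference between settings. The SYP call was lost in several fits that left out 1 sample (limma adjusted p = 0.0611 to 0.0759), and its count value was not called.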

How the results depend on the processing

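The 33 fold changes of members that were called kept their direction under the alternatives run. POU3F2 in V16D lost its call with DESeq2 and with all groups in one fit (adjusted p = 0.186 and 0.0876), SYP for JQ-1 on counts with DESeq2 (0.0859), and the DHT by JQ-1 interaction of SYP with log2(FPKM + 0.1) and with no filter (0.0694 and 0.0624). Members called for enzalutamide in V16D numbered 1 with DESeq2 and with all groups in one fit, in place of 2. The number was also 1 with limma on FPKM, where POU3F2, under 1 FPKM in every sample, could not pass the filter and was not tested. With no filter on low values the FPKM calls became 2 for enzalutamide and 4 for DHT against vehicle, 3 for DHT against enzalutamide and 7 for DHT plus JQ-1 against DHT, and with no filter on counts they became 3 for DHT against vehicle, since more members were tested. With the filter, 38.7%, 72.1%, 57.4% and 78.8% of all genes were called in these FPKM comparisons, in the same order, and 37.5% in that count comparison. The shares in the fits with no filter are not given here. With all groups in one fit 2 members were called for enzalutamide in stripped serum and 1 for DHT against enzalutamide on FPKM. With log2(FPKM + 0.1) 1 was called for DHT by JQ-1. Among other list genes, the DHT by JQ-1 interaction of HES1 changed sign to 0.20 (adjusted p = 0.624) with log2(FPKM + 0.1). The cause was not tested. Leaving out each replicate gave 1 to 2 members for enzalutamide in V16D, 0 to 1 for its interaction with cell line, 1 to 2 for DHT by JQ-1 on counts and, on FPKM, 0 to 1 for enzalutamide in stripped serum, 1 to 2 for DHT, 0 to 1 for DHT against enzalutamide and 1 to 3 for DHT by JQ-1. NCAM1 leaves the FPKM fits of enzalutamide and of DHT against vehicle when 1 vehicle sample is left out, because it then fails the filter.

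Samples with the same replicate number did not deviate together, with correlations of -0.171 to 0.159 and 0 of 9 comparisons above 0.1 for every number. With the replicate number as a block, 3 members in place of 2 were called for DHT by JQ-1 on FPKM, and the number called was unchanged in the other comparisons. The stripped-serum counts limit low genes most, since 3 reads there are 1.65 to 3.05 CPM.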
